A study of Rattus norvegicus with 11 samples.

Results

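The 8 genes described here encode the enzymes that make and remove malonyl-CoA (Acaca, Acacb and Mlycd) and the carnitine shuttle that malonyl-CoA restrains (Cpt1a, Cpt1b, Cpt1c, Slc25a20 and Cpt2). They were chosen by gene symbol, with earlier results of these data known. All 8 were found among the 17257 genes of the deposited table, of which 13346 had reads. Ventricular myocytes were isolated by Langendorff perfusion from wild-type Sprague Dawley rats aged 3 to 4 months, plated for 45 minutes with no treatment and frozen. There were 5 libraries from females and 6 from males, described by the submitters as biological replicates, and the series asked how sex relates to gene expression in these cells. Oestrous stage is not stated in the labels.

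Fatty acids are the main fuel of the adult heart, and they enter the mitochondrion as acylcarnitines. Carnitine palmitoyltransferase of the outer membrane, encoded by the Cpt1 genes, makes the acylcarnitine, the carrier encoded by Slc25a20 moves it across the inner membrane in exchange for free carnitine, and Cpt2 encodes the inner enzyme that turns it back into acyl-CoA for oxidation. Malonyl-CoA, made from acetyl-CoA by acetyl-CoA carboxylase, inhibits the outer enzyme and so restrains entry. Malonyl-CoA decarboxylase, encoded by Mlycd, removes it, and AMP-activated protein kinase restrains the carboxylases by phosphorylation.

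The authors' deposited table called 4 of the 8 genes higher in females and none lower, at an adjusted p under 0.05 by DESeq. They were Acacb and Mlycd, which encode enzymes with opposite actions on malonyl-CoA, and Cpt1b and Cpt1a, the muscle and liver forms of the outer acyltransferase. At an unadjusted p under 0.05 there were 5 higher, Cpt2 added, and 0 lower, against 12.7% of all genes higher. Over all 13346 genes tested, 6.71% were called higher in females and 7.76% lower. Among the 9116 genes averaging 50 or more normalized counts, a level that all 8 genes reach, 9.69% were called higher and 10.8% lower. The log2 fold changes of the 8 genes, female over male, had a median of 0.36, against -0.0028 for genes averaging 50 or more. All 8 values were above 0, as were 49.8% of those of genes averaging 50 or more. Because the 8 genes were chosen with earlier results known, their counts beside these shares are a description only. The authors' deposited table holds a mean per sex and no value per library, so means are given without an SD, except for Cpt1c, whose reads could be recovered. The approximate 95% intervals given with the log2 fold changes are those implied by the authors' p-value on a normal scale. In bulk RNA such as this, fewer cells of a type and less RNA per cell cannot be told apart.

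**Figure D1:**
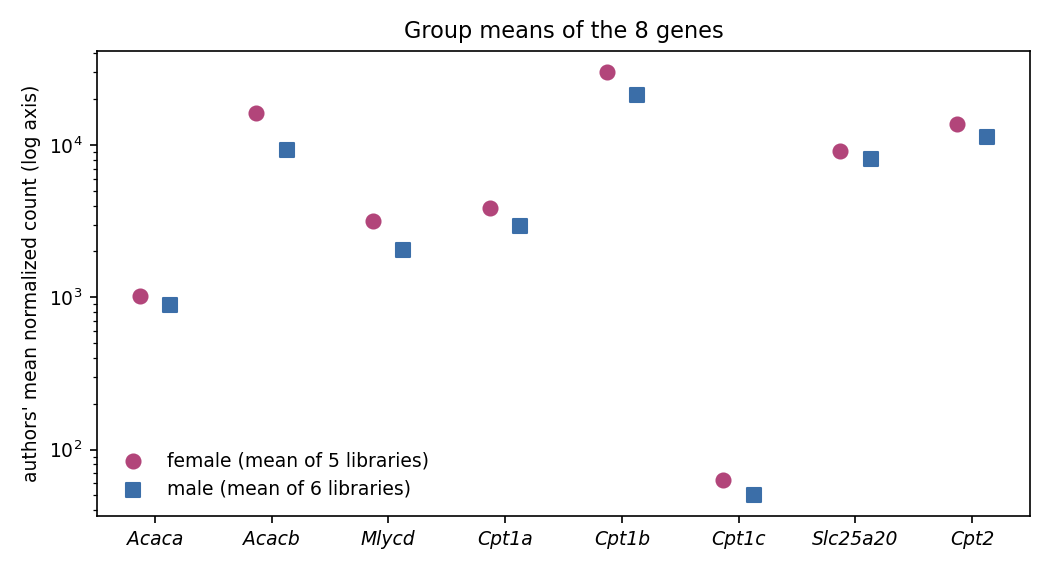
Authors' mean normalized count of each gene on a log axis, as circles for females (mean of 5 libraries) and squares for males (mean of 6 libraries). The female mean lies above the male mean for all 8 genes, with the widest gap on the log axis at Acacb (16176 against 9198), and levels of different genes are not scaled by transcript length.

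The promoters of Acacb, Mlycd and Cpt1a are shown because these called genes have an entry in the RefSeq promoter table of build GRCr8. Each runs from 250 bases before to 50 bases after the gene's start, 5′ to 3′ on the gene's strand, with CpG dinucleotides in capitals. The stretches are chr12:48138165-48138464 on the minus strand for Acacb, chr19:64356332-64356631 on the plus strand for Mlycd and chr1:209995910-209996209 on the plus strand for Cpt1a.
Acacb: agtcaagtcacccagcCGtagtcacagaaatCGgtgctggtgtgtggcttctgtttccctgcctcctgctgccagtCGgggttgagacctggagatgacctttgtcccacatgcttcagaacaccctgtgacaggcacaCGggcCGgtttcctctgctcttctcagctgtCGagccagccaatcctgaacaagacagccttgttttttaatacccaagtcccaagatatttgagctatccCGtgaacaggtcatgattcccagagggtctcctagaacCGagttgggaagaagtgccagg
Mlycd: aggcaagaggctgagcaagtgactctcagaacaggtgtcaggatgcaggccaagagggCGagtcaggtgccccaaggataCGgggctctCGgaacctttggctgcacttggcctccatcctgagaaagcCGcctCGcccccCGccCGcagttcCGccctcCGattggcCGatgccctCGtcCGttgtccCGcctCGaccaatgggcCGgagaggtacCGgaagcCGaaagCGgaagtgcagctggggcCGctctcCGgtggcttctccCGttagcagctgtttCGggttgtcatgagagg
Cpt1a: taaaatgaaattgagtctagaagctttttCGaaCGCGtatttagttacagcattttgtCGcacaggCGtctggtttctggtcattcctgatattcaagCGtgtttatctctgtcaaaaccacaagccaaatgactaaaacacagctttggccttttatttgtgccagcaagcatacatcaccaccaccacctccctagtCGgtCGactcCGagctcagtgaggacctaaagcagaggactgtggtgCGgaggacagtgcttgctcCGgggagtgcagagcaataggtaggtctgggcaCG
These stretches differ in composition. Mlycd holds 22 CpG and 64.0% G or C, Acacb 8 CpG and 53.7%, and Cpt1a 12 CpG and 48.3%, against medians of 7 CpG and 51.7% over 33469 promoters. The 5 member promoters in that table, which include Cpt2 and Slc25a20, were searched on both strands for TNAAGGTCA (estrogen-related receptor), CACGTG (E-box), the consensus estrogen response element and the consensus direct repeat of nuclear receptors with a spacer of 1 base. No match was found in the 5 windows. Over all promoters 1.20%, 6.42%, 0.0269% and 0.0538% held the motifs in that order. At such rates a lack of matches in 5 windows says little. Inexact forms of the motifs and sequence outside the windows were not searched.

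Among the genes for making malonyl-CoA, Acacb was higher in females and Acaca did not pass the test. Acacb encodes the carboxylase anchored at the outer mitochondrial membrane, whose product acts on the neighbouring acyltransferase. Its authors' mean was 16176 in females and 9198 in males in the authors' deposited table (1.76-fold, adjusted p = 4.87e-05). The log2 fold change was 0.81, with an approximate interval of 0.51 to 1.11. By p it stood at rank 15 among the 896 genes called higher in females. Acaca encodes the cytosolic carboxylase that feeds fatty acid synthesis. Its authors' mean was 1027 in females and 888 in males in the authors' deposited table (log2 fold change 0.21, adjusted p = 0.405). The approximate interval of Acaca ran from -0.085 to 0.50, and so it did not overlap that of Acacb. Both genes were measured in the same libraries, and the difference between their changes was not tested.

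The share of Acacb among the counts of the carboxylase genes was 94.0% in females and 91.2% in males, and that of Acaca 5.97% and 8.81% in the same order. Transcript lengths were not used here, so these are shares of reads and not of transcripts. Length cancels when the ratio of the pair is compared between the sexes. The count ratio of Acacb to Acaca was 15.8 in females and 10.4 in males, 1.52 times as high in females.

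Mlycd, the gene for removal of malonyl-CoA, was also higher in females. Its authors' mean was 3161 in females and 2038 in males in the authors' deposited table (1.55-fold, adjusted p = 7.92e-04). The log2 fold change was 0.63, with an approximate interval of 0.36 to 0.91, and its rank by p was 84 among genes called higher.

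The genes for synthesis and removal were then set against each other. The count ratio of Acaca plus Acacb to Mlycd was 5.44 in females and 4.95 in males, 1.10 times as high in females, or 0.14 on the log2 scale. With Acacb alone the ratio to Mlycd was 5.12 in females and 4.51 in males, 1.13 times as high. For Acaca alone it was 0.325 in females and 0.436 in males, 0.745 times the male ratio. These ratios come from group means and were not tested. They are ratios of reads without scaling by length, not of transcripts, enzyme activity or the amount of malonyl-CoA. For the sum of Acaca and Acacb, length need not cancel between the sexes.

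**Figure D2:**
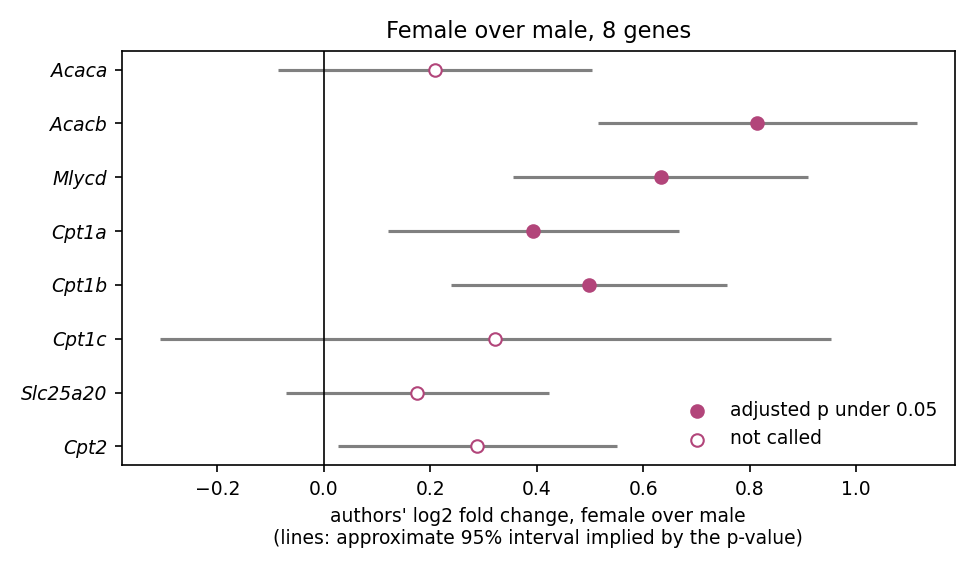
Authors' log2 fold change, female over male, for each gene, with filled points at an adjusted p under 0.05 and lines for the approximate 95% interval implied by the p-value. Acacb (0.81), Mlycd (0.63), Cpt1b (0.50) and Cpt1a (0.39) are filled, and the intervals of Acaca, Cpt1c and Slc25a20 cross 0.

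Of the outer acyltransferase genes, Cpt1b and Cpt1a were higher in females and Cpt1c did not pass the test. Cpt1b encodes the muscle form, which is the more sensitive to malonyl-CoA. Its authors' mean was 30166 in females and 21359 in males in the authors' deposited table (1.41-fold, adjusted p = 0.00490). The log2 fold change was 0.50, with an approximate interval of 0.24 to 0.76. Cpt1a encodes the liver form, which many cell types other than myocytes also express. Its authors' mean was 3844 in females and 2926 in males in the authors' deposited table (1.31-fold, adjusted p = 0.0377). The log2 fold change was 0.39, with an approximate interval of 0.12 to 0.67, and its rank by p was 790 among the 896 genes called higher.

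As a share of the family's counts, Cpt1b was 0.764 percentage points higher in females. It gave 88.5% of the family's counts in females and 87.8% in males, Cpt1a 11.3% and 12.02% in the same order, and Cpt1c 0.186% and 0.208%. The count ratio of Cpt1b to Cpt1a was 7.85 in females and 7.30 in males, 1.08 times as high in females. These are shares and ratios of reads, without scaling by length and without a test.

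Cpt1c encodes the brain form, found mainly in neurons at the endoplasmic reticulum and with little acyltransferase activity. Its level was low enough for the reads of each library to be recovered from the digits of the group means. The female libraries had 85.1, 75.6, 71.0, 55.5 and 29.8 normalized reads, and the male libraries 66.1, 59.2, 58.6, 51.6, 38.1 and 30.7. Of the female libraries, 3 lay above every male library and 1 lay below every male library, so the groups overlapped. The means were 63.4 ± 21.6 (SD, n = 5) in females and 50.7 ± 13.6 (SD, n = 6) in males, a difference of 12.7 with a two-sided exact permutation p of 0.253. The log2 fold change was 0.32 in the authors' deposited table (adjusted p = 0.599). The approximate interval of that fold change ran from -0.31 to 0.95.

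The lowest female value came from the female library with the smallest size factor (0.9717, against 0.9724 in the next female library and 0.811 in the lowest male library). Without it the difference was 21.1 normalized reads, with an exact permutation p of 0.0429. Leaving out the lowest female value could only widen the difference. Over the 11 libraries left out in turn, this exact permutation p was the lowest (0.0429 to 0.505), so it is a description only. The same library had under 2 normalized reads in 153 of 1591 recovered genes with a mean of at least 10, against 20 to 112 genes in the other female libraries and 22 to 59 in the male libraries. Neuronal markers had low authors' means in both sexes and differed in direction. Snap25 was at 0 in females and 0.710 in males, Rbfox3 at 1.97 in females and 4.75 in males, Syt1 at 1.47 in females and 0.344 in males, Tubb3 at 6.63 in females and 3.58 in males, and Elavl4 at 0.181 in females and 0 in males in the authors' deposited table. None of the 8 markers of neurons and glia was called, and 4 had a log2 fold change above 0.

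**Figure D3:**
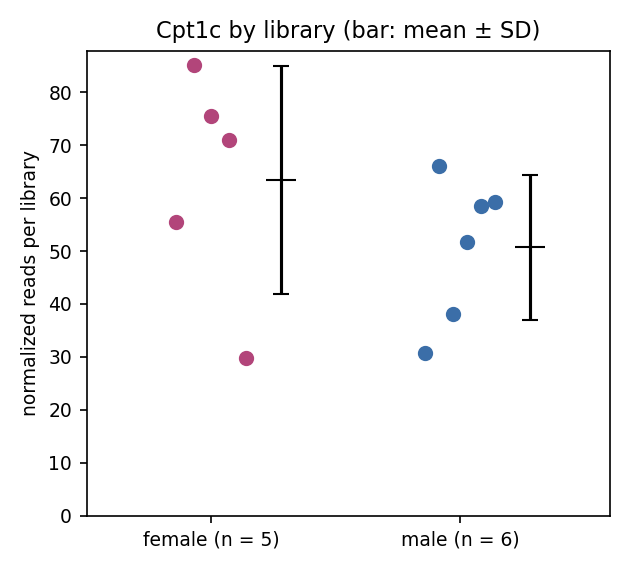
Normalized reads of Cpt1c in each library, with the mean and SD as bars, for females (n = 5) and males (n = 6). The female libraries spread from 29.8 to 85.1 and the male libraries from 30.7 to 66.1, so the groups overlap.

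Among 1590 other recovered genes with a mean of at least 10, those most like Cpt1c over the 11 libraries were B3galt6, Cbx2 and Anks1b. Their Pearson r on log2 of normalized reads plus 1 was 0.86, 0.83 and 0.82, and their Spearman rho 0.67, 0.75 and 0.61. Without the 2 libraries farthest from the median of Cpt1c, r was 0.65, 0.59 and 0.58. The 3 genes are the closest of many searched, so these values are a description only. For the other 7 genes a pair of group means defines no such pattern.

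The genes for the later steps of the shuttle did not pass the test. Slc25a20, the carnitine-acylcarnitine carrier, had an authors' mean of 9192 in females and 8137 in males in the authors' deposited table (log2 fold change 0.18, adjusted p = 0.4001). The approximate interval ran from -0.070 to 0.42. Cpt2 had an authors' mean of 13783 in females and 11283 in males in the authors' deposited table (log2 fold change 0.29, adjusted p = 0.131). Its unadjusted p was 0.0305 there, and the approximate interval ran from 0.027 to 0.55, so an increase as large as that of Cpt1b is within it. In RefSeq's build GRCr8 the span of Slc25a20 overlaps those of the protein-coding LOC120094262 and of a noncoding RNA. The span of Acaca overlaps those of the protein-coding C10h17orf78, the pseudogene Rpl17-ps8 and a noncoding RNA, and the spans of Acacb, Cpt1a and Cpt2 each overlap that of a noncoding RNA. None of the overlapping genes has a row in the authors' deposited table, and the submitters name build rn6. Overlap of exons was not looked at, so any effect on the reads of these 5 genes is unknown.

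Relative to Cpt2 and Slc25a20, Cpt1b had higher ratios in females, and so did Acacb relative to Cpt1b. The count ratio of Cpt1b to Cpt2 was 2.19 in females and 1.89 in males, and that of Cpt1b to Slc25a20 was 3.28 in females and 2.62 in males. Between the later steps, the ratio of Cpt2 to Slc25a20 was 1.499 in females and 1.39 in males. Acacb to Cpt1b, the gene of the inhibitor's synthesis over that of its target, had a ratio of 0.536 in females and 0.431 in males, 1.25 times as high in females. None of these differences was tested.

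The neighbouring steps of the pathway were looked at in 4 lists of 51 genes, of which 48 were measured. None of the 48 was called higher in females by the authors' DESeq test and 4 were lower, with a median log2 fold change of -0.020. The 4 are 8.33% of the 48, near the 7.76% of all genes called lower. At an unadjusted p under 0.05, 12.5% of the 48 were higher (6 genes) and 22.9% lower (11 genes), against 12.7% and 14.6% of all genes and 17.9% and 19.9% of genes averaging 50 or more. The lists were put together with earlier results of these data known.

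The list put together for kinase and modifier control of the carboxylases held 2 genes lower in females among 15 measured, and none higher. Of all genes 7.76% were called lower, and of genes averaging 50 or more 10.8%. The count of this short list was not tested against these shares. Both genes called lower encode subunits of AMP-activated protein kinase. Prkaa2, the catalytic alpha subunit, had an authors' mean of 3199 in females and 5659 in males in the authors' deposited table (log2 fold change -0.82, adjusted p = 0.0365). Prkab2, a scaffold subunit, had an authors' mean of 462 in females and 705 in males in the authors' deposited table (log2 fold change -0.61, adjusted p = 0.0323). The alternative subunits did not pass, and the authors' deposited table gave log2 fold changes of -0.34 for Prkaa1 (adjusted p = 0.107) and 0.32 for Prkab1 (adjusted p = 0.106). The authors' mean of Prkaa1 was 1252 in females and 1582 in males, below that of Prkaa2 in both sexes. That of Prkab1 was 3458 in females and 2762 in males, above that of Prkab2 in both sexes. These counts are not scaled by length. These alternatives were chosen for mention after their values were seen. Mid1ip1, which promotes assembly of the carboxylases, had an authors' mean of 4508 in females and 5149 in males in the authors' deposited table (adjusted p = 0.490). Cab39, a partner of the upstream kinase Stk11, had an authors' mean of 3367 in females and 4921 in males in the authors' deposited table (log2 fold change -0.55, adjusted p = 0.0612). Adjusted over genes averaging 10 or more, its DESeq p was 0.0486, and it was chosen for mention after its values were seen. The median of this list was -0.19. At an unadjusted DESeq p under 0.05, 1 of the 15 was higher and 5 lower, against 12.7% and 14.6% of all genes. Of genes averaging 50 or more, 17.9% were higher and 19.9% lower at this threshold. The 1 higher was Prkab1, and the 5 lower were Prkaa1, Prkaa2, Prkab2, Cab39 and Ppm1k. Not every gene of the list acts on the carboxylases themselves, and whether Ppm1k does is not shown by these data.

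No gene of malonyl-CoA supply and use was called by DESeq among 11 measured, with 0 at an unadjusted p under 0.05, and the median log2 fold change was 0.089. Acss2, which makes acetyl-CoA from acetate, had an authors' mean of 5611 in females and 5274 in males in the authors' deposited table (adjusted p = 0.796). Fasn, the fatty acid synthase that uses malonyl-CoA as its building block, had an authors' mean of 143 in females and 124 in males in the authors' deposited table (adjusted p = 0.745), and it was chosen for mention after its values were seen.

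In the list for carnitine supply and other carnitine acyltransferases, 1 of 10 measured genes was lower in females and none higher, with a median of 0.18. Over all genes 7.76% were called lower, and 10.8% of genes averaging 50 or more. At an unadjusted DESeq p under 0.05, 4 of the 10 were higher and 1 lower, against 12.7% and 14.6% of all genes. Among genes averaging 50 or more these shares were 17.9% and 19.9%, and the difference from them was not tested. The 4 higher genes were Crat, Aldh9a1, Slc25a29 and Shmt2, of which only Crat encodes a carnitine acyltransferase. Crot, the peroxisomal carnitine octanoyltransferase, had an authors' mean of 388 in females and 569 in males in the authors' deposited table (log2 fold change -0.55, adjusted p = 0.0193). Crat, which transfers acetyl groups to carnitine in the mitochondrial matrix, had an authors' mean of 40460 in females and 33367 in males in the authors' deposited table (adjusted p = 0.140).

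The list for acyl-CoA supply to the outer membrane likewise had 1 gene lower in females, of 12 measured, and none higher, with a median of -0.14. Over all genes 7.76% were called lower, and 10.8% of genes averaging 50 or more. At an unadjusted DESeq p under 0.05, 1 of the 12 was higher and 5 lower, against 12.7% and 14.6% of all genes. Of genes averaging 50 or more, 17.9% were higher and 19.9% lower at this threshold. The 1 higher was Acot2, which encodes an acyl-CoA thioesterase and so removes acyl-CoA rather than supplying it. Acsl5, an acyl-CoA synthetase, had an authors' mean of 394 in females and 558 in males in the authors' deposited table (log2 fold change -0.50, adjusted p = 0.0383). Acsl1, the main acyl-CoA synthetase of heart, had an authors' mean of 44161 in females and 43707 in males in the authors' deposited table (adjusted p = 0.996).

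**Figure D4:**
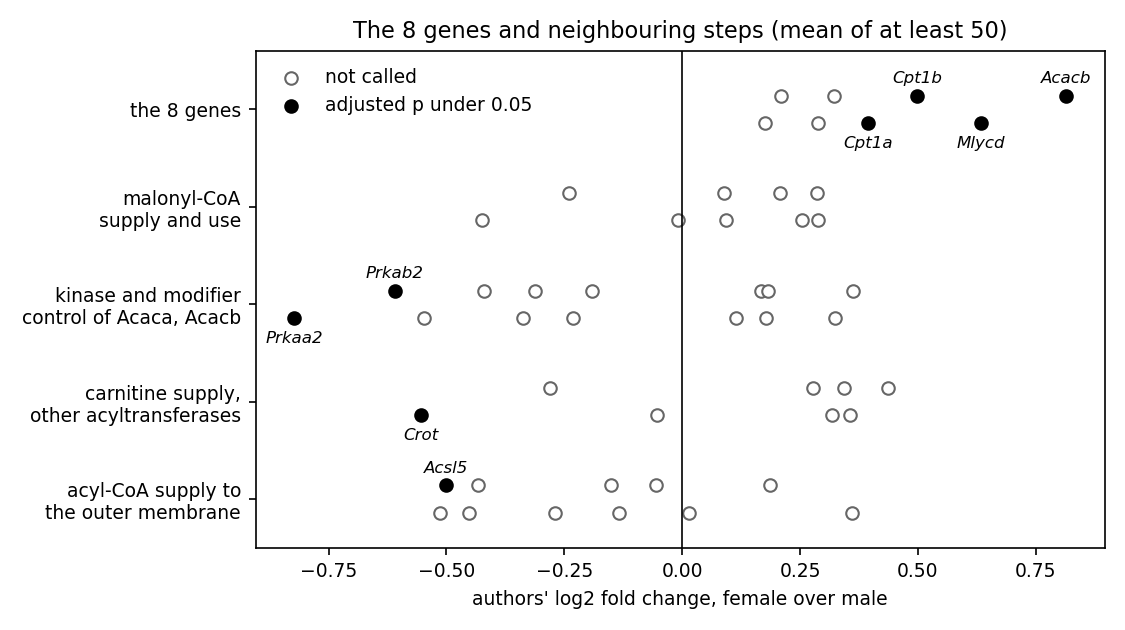
Authors' log2 fold change, female over male, of the 8 genes and of the listed neighbouring genes with a mean of at least 50, with filled points at an adjusted p under 0.05. The filled points of the 8 genes are above 0 (4 genes), and the filled points of the other lists are below 0 (Prkaa2, Prkab2, Crot and Acsl5).

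Markers of the myocyte were abundant, and those of some other cells differed between the sexes. Of 10 ventricular myocyte markers, the authors' deposited table called 2 higher in females (Myh6 and Ryr2) and none lower, with a summed authors' mean of 4371238 in females and 3664996 in males. Without Myh6 the other 9 summed to 3040370 in females and 2833225 in males, and Myh7, Tnnt2 and Pln had lower means in females without passing the test. Among 7 measured fibroblast markers, none was called higher in females and 3 were called lower (Col1a1, Col3a1 and Postn). The 7 summed to 8968 in females and 18075 in males, and 1 of them had a log2 fold change above 0. The macrophage list had 1 of 8 markers called lower (Mrc1), with sums of 925 in females and 1248 in males. None of these 8 had a log2 fold change above 0. Of genes averaging 50 or more, 49.8% were above 0, and over all genes 7.76% were called lower. Endothelial markers went both ways, with 2 of 8 higher and 1 lower and sums of 21531 in females and 22408 in males. No marker passed the test among 7 of smooth muscle and pericytes, with sums of 13189 in females and 12698 in males, or among 8 of neurons and glia, with sums of 38.0 and 39.1 in the same order. Among adipocyte markers, where Acaca and Acacb are also expressed, the defining genes were near 0, with authors' means of 3.64 for Adipoq and 0.411 for Plin1 in females and of 0.603 and 0 in males in the authors' deposited table. None of the 7 measured adipocyte markers was called, and their sums of 124116 in females and 132051 in males were mostly Lpl, which myocytes express. The part of these marker differences in the results for the 8 genes was not tested.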

How the data were processed

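Libraries came from ventricular myocytes of 5 female and 6 male rats. Per the labels' protocols, 650 ng of RNA of integrity number 9 or more went, after ribosomal depletion, into stranded paired-end libraries. The submitters' processing notes name build rn6 and the tools DESeq, HTSeq 0.6.1, TopHat2 2.0.12, Trimmomatic 0.32 and FastQC, without order or settings. Strand use in counting is not stated there.

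Per the file headers, the authors deposited for each gene a mean normalized signal (counts divided by size factors) over all libraries and over groups A and B, a linear fold ratio, its log2 value, a p-value and an adjusted p-value. For 13346 of 13346 genes with reads, weighting A by 6 libraries and B by 5 gave the overall mean (relative tolerance 1e-09), and the opposite weights did so for 0 genes, so A was read as males and B as females. The deposited adjustment is that of Benjamini and Hochberg over these genes, to within 3.3e-15. The authors' DESeq calls at 0.05 were taken as deposited. Intervals were the log2 fold change ± the normal quantile times its size divided by the z of the p-value. The genes named by rule were the 8 members and, in each list, every called gene and the uncalled gene with the highest mean. Prkaa1, Prkab1, Cab39 and Fasn were added after their values were seen. Also named were some genes behind counts at an unadjusted p, genes with recovered reads, those most like Cpt1c, and cell markers. The members and lists were chosen with earlier results of these data known.

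Multiplied by its number of libraries, a group mean is the total of whole reads after division by each library's size factor. Size factors were read from the smallest sums, and ran from 0.972 to 1.14 in females and from 0.811 to 1.17 in males. Total reads per library are unknown. Exactly 1 set of whole reads was found for 4487 of 4487 genes with a female mean up to 100 and for 3949 of 3949 with a male mean up to 60. When the means were shifted slightly, 0.0223% (female) and 0.177% (male) still gave a solution. Tested on simulated data with these size factors, the search returned the true reads for 100% of 481 genes in females and of 482 in males. Libraries are thus known by sex and not by replicate number. Python 3.11.15, numpy 2.4.6 and scipy 1.17.1 were used.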

Additional observations from a re-analysis of the deposited data

Results flagged for a closer look

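Of the recovered neighbouring genes, 3 values stood far from the other libraries of their sex among 13 groups of libraries looked at. All 3 belong to genes with 0 reads in most libraries, where a few reads in 1 library are enough to stand apart, so the usual rate of about 1 in 20 groups by chance does not apply. Elovl6, a fatty acid elongase, had 2.64 normalized reads in 1 female library and 0 in the other 4, and its highest male library had 2.56, which is 3 reads in each case. Thrsp, a regulator of lipogenesis, had 11.8 normalized reads in 1 male library and 0 in the other 5, while 2 of the 5 female libraries had 7.20 and 9.26.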

How the results depend on the processing

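With the adjustment limited to the 10519 genes averaging 10 or more, 4 of the 8 genes were called, all higher in females. A Bonferroni adjustment of the authors' DESeq p-values left 1, Acacb, at 0.00136, while Mlycd had 0.0975 and Cpt1a and Cpt1b had 1. Over the 8 genes the median log2 fold change was 0.36 with the authors' size factors. It was 0.36 when centred on the median of genes averaging 50 or more. At equal sums over rows with a gene symbol it was 0.30, and with a pseudocount of 1 it was 0.36. All 8 values stayed above 0 under these 3 alternatives. The first 2 take the same amount from every gene (-0.0028 and 0.062), below the lowest of the 8 values (0.18). The pseudocount is small beside their means, so the kept signs are no separate check of direction. Rows with an Ensembl identifier alone held 50.7% of the summed female means and 57.5% of the summed male means. Leaving out each library in turn, the female minus male difference of Cpt1c ran from 7.27 to 21.1 normalized reads. The exact permutation p-values ran from 0.0429 to 0.505. The difference passed 0.05 only without the female library of smallest size factor. That library holds the lowest female Cpt1c value, so its removal could only widen the difference. Of the neighbouring genes, 4 were lower in females over all genes and when limited to those averaging 50 or more, and 5 when adjusted over genes averaging 10 or more, where Cab39 was added with an adjusted p of 0.0486 by DESeq. None was higher under either alternative. No paired analysis was possible because the deposited columns carry group means and no replicate numbers. The alternatives with length scaling were not run, since no transcript lengths were used. For 7 of the 8 genes no library could be left out, so a single library's part in their calls is unknown.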

Other observations

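Reads were recovered for 6 neighbouring genes beside Cpt1c. Slc25a1, the mitochondrial citrate carrier, had 75.1, 58.4, 56.1, 42.3 and 1.03 normalized reads in the female libraries and 26.2 to 64.0 in the male libraries. The female library with 1.03 is the one with the lowest Cpt1c. Acot1, a cytosolic acyl-CoA thioesterase, had 10.7 ± 8.82 (SD, n = 5) normalized reads in females and 2.96 ± 2.34 (SD, n = 6) in males, with a two-sided exact permutation p of 0.0476, and 0.333 adjusted over the 7 genes. It was above every male library in 4 of 5 female libraries, and its adjusted p was 0.255 in the authors' deposited table. Acot1 is closely related to Acot2, so its reads are uncertain. Slc22a4, an organic cation and carnitine transporter, had means of 23.8 ± 9.25 (SD, n = 5) in females and 22.6 ± 13.2 (SD, n = 6) in males, with an exact permutation p of 0.859. Bbox1, which encodes the last enzyme of carnitine synthesis, had 0 reads in the 5 female libraries and 9 reads in 2 of the 6 male libraries.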
